A study of Mus musculus with 5 samples.

Results

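The 10 genes described here encode heat-shock proteins of the cytosol and the mitochondrial matrix: Hspa1a, Hspa1b, Hspa8, Hsph1, Hsp90aa1, Hsp90ab1, Dnaja1, Dnajb1, Hspd1 and Hspe1. They were taken by gene symbol, as 10 of the 46983 genes of a count table, and each symbol matched 1 row. The table holds poly-A RNA of Kupffer cells, the resident macrophages of the liver sinusoids, from mice with 1 intact copy of Id3 (genotype Id3+/-, 3 libraries, replicates 1 to 3) and from mice with none (Id3-/-, 2 libraries, replicates 2 and 3). The controls thus lack 1 copy of Id3 and are not wild type. Id3 is an inhibitor of DNA binding that holds E proteins away from DNA. Livers were broken up mechanically in cold saline, and how the Kupffer cells were then isolated is not stated. Every column of the table carries the suffix 3w, which the labels do not explain. Nor do they state the strain, sex, age and treatment of the mice, which part of Id3 was removed and in which cells, and whether the libraries came from separate animals. The p-values therefore measure only the spread between these libraries, which may be technical.

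Heat-shock proteins are chaperones, which bind unfolded proteins and help them fold or be cleared. Proteins of the HSP70 class (Hspa8, which is made constantly, and the stress-induced pair Hspa1a and Hspa1b) hold a client in cycles driven by ATP. J-domain proteins (Dnaja1, Dnajb1) deliver clients and start the ATP cycle, and Hsph1, of the HSP110 class, exchanges the nucleotide. HSP90 proteins (the inducible Hsp90aa1 and the constitutive Hsp90ab1) mature kinases and steroid receptors, and Hspd1 with its lid Hspe1 forms the folding chamber of the mitochondrial matrix. After heat or other protein stress, heat-shock factor HSF1 binds heat-shock elements, which are inverted repeats of the letters GAA, and raises many of these genes together. In macrophages, some of them also rise when tissue is dissociated.

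Promoter sequences were searched for the repeats of heat-shock elements. RefSeq promoters (build GRCm38.p6) were found for 7 of the 10 members. The others were Hspa8, Hsp90aa1 and Hsp90ab1. In the 250 bases before each start, GAANNTTC and TTCNNGAA were searched. Each reads the same on both strands, and overlaps were allowed. At least 1 of them was present in 7 of the 12 promoters listed for these members, and in 12.8% of all 32851 promoters of that length. By gene, 6 of the 7 members had a match in at least 1 promoter. These are not independent sites. Both Hsph1 promoters hold the same site, Hspe1 and Hspd1 share 1 stretch, and the Hspa1a and Hspa1b sites have the same letters. Alone, GAANNTTC occurs in 6.69% and TTCNNGAA in 7.17% of all promoters. The sites are printed in 30 bases, 5′ to 3′ on the strand of the gene, with the matching letters in capitals, to show which letters the genes compared later share.
Hspa1a: cgaaactgctgGAAGATTCctggccccaag
Hspa1b: cgaaactgctgGAAGATTCctggccccaag
Hsph1: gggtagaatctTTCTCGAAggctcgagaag
Dnaja1: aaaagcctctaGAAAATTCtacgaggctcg
Hspe1: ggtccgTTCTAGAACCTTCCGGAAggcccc
Hspd1: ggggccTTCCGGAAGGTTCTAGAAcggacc
The Hspa1a site lies at chr17:34972242-34972271 and the Hspa1b site at chr17:34959324-34959353, both on the minus strand, and their letters are the same. The Hsph1 site is at chr5:149636351-149636380 on the minus strand, and the Dnaja1 site at chr4:40722333-40722362 on the plus strand. Of the 3 listed Dnaja1 promoters, only 1 holds a match. Hspe1 and Hspd1 are transcribed in opposite directions, and their lines are 1 stretch, chr1:55088053-55088082, read on the plus and the minus strand. It holds 3 overlapping matches in 18 bases. A longer element of 3 alternating GAA units, each 2 bases from the next, was searched on both strands and contains the shorter motifs. It occurred in 0.466% of all promoters and, among the members, in those of Hspd1 and Hspe1. Dnajb1 had no match of these letters in its 2 listed promoters. Of the 7 members searched, it alone held CAGGTG, which is among the sequences that E proteins bind. On either strand, CAGGTG was in 1 of the 12 member promoters and in 17.2% of all promoters. Other sequences bound by E proteins were not searched, so the other members may hold some. A match is a description of letters and not evidence of binding.

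The promoters of Hspa1a and Hspa1b were identical at 247 of 250 positions. That of Hspa1a is printed over the last 160 bases before its start (chr17:34972157-34972316, minus strand, GRCm38.p6), with the repeat in capitals, because the counts of this pair differed in direction. That of Hspe1 (chr1:55087988-55088147, plus strand) is shown for its 3 overlapping matches. Over 250 bases, the Hspe1 promoter shares 215 genomic bases with 1 of the 2 Hspd1 promoters, read on the other strand.
Hspa1a promoter: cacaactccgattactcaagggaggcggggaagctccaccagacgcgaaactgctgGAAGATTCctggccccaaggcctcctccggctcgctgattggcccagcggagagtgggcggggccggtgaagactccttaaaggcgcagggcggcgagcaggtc
Hspe1 promoter: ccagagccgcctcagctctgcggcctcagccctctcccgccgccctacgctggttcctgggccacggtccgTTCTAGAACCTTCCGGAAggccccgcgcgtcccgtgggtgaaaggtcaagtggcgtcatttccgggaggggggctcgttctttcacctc

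How well each gene can be counted depends on how much of its transcript is unique, since reads with several alignments were set apart in an entry of their own. Of all 50-base windows of the longest protein-coding GENCODE M21 transcript, 0% were found in another annotated gene for Hsph1, 0.441% for Dnajb1 and 4.49% for Hsp90ab1. The share was 28.8% for Dnaja1, 44.8% each for Hspd1 and Hspe1, 58.5% for Hsp90aa1, 62.3% for Hspa1b, 66.3% for Hspa1a and 74.8% for Hspa8. Hspa1a and Hspa1b mostly share windows with each other, Hspa8 with the gene model Gm15459, and Hsp90aa1 with Gm12346. Reads of shared windows may thus be missing from the counts of Hspa8, Hsp90aa1, Hspa1a, Hspa1b, Hspd1, Hspe1 and Dnaja1. With 100-base windows the share was 63.4% for Hspa8, 26.9% for Hspd1 and 22.4% for Hspe1. The labels give no read length. The entry for several alignments made up 38.3% to 41.0% of the aligned total in heterozygous and 32.3% and 34.1% in knockout libraries. Whether it counts such a read once or once per alignment is not stated. The part of this difference in the members' values was not tested.

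**Figure D1:**
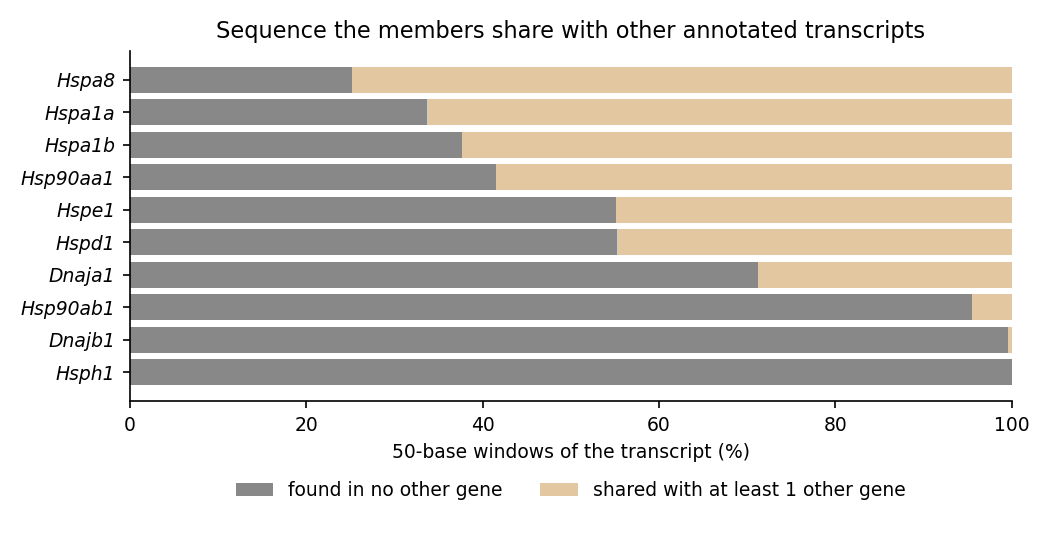
Share of 50-base transcript windows, in percent, that occur in no other annotated gene (grey) or in at least 1 other gene (tan), for each of the 10 members. Hsph1, Dnajb1 and Hsp90ab1 are almost wholly unique, while 74.8% of the windows of Hspa8 are shared.

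The libraries held 74823374 to 80944135 counts assigned to genes. Id3 itself was at 229, 221 and 256 CPM (the read count scaled to the library total with TMM factors, which even out composition) in the heterozygous libraries and at 1.01 and 1.42 CPM in the knockout libraries, so each matched its genotype label. Kupffer cell markers (Clec4f, Vsig4, Timd4, Cd5l and 4 others) summed, with scaling to library size alone, to 47006 to 48929 CPM and to 52742 and 48512 CPM. Of these 8, Marco alone passed the test, 2.09-fold higher in the knockout. Cd5l and C1qa were also higher in both knockout libraries than in any heterozygous one. Clec4f, Vsig4, Timd4 and Adgre1 were lower in both, and Csf1r overlapped. Hepatocyte markers, 6 of 10 of them lower by the test, summed to 17194 to 21330 CPM in the heterozygous but to 3963 and 9638 CPM in knockout replicates 2 and 3. Neutrophil markers, of which 6 of 9 could be tested and 4 were higher, summed to 6.41 to 11.2 CPM and to 209 and 32.8 CPM. Of these 4, Ngp and Cxcr2 passed the filter on low counts only through the knockout libraries, so their calls are no support. Stellate cell markers, 2 of 6 lower by the test, summed to 97.0 to 103 CPM and to 53.1 and 62.3 CPM. Sinusoidal endothelial markers, 3 of 7 lower, summed to 958 to 1169 CPM and to 925 and 901 CPM. Of 5 monocyte markers, Ly6c2 alone passed, at 1.08, 1.08 and 0.412 CPM in heterozygous and at 34.7 and 9.76 CPM in knockout libraries. The part of these markers in the members' values was not tested, except for the hepatocyte covariate given later. No marker of these lists was at 0 in every library. By the same test, 10.0% of all genes tested were lower and 6.41% higher in the knockout. The median log2 fold change was -0.33 over transcripts longer than 4235 bases and 0.21 over those of up to 1594 bases. It was -0.45 at a GC content of up to 45.7% and 0.28 above 54.7%. In such bulk samples, fewer cells of a type and less RNA per cell cannot be told apart.

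The summed counts of the family were lower in both knockout libraries than in any heterozygous one. The 10 genes together made up 0.126%, 0.141% and 0.134% of the gene counts in heterozygous replicates 1, 2 and 3, and 0.0911% and 0.113% in knockout replicates 2 and 3. Hsp90ab1 alone took 69.4% to 71.1% of this pool in the heterozygous and 66.3% in both knockout libraries. The share of Dnajb1 in the pool was 5.25% to 6.22% in heterozygous and 10.9% and 8.48% in knockout libraries. Knockout replicate 2 had the lowest value of all 5 libraries for 8 of the 10 members, and heterozygous replicate 2 the highest for 6.

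By the test, 3 members fell in the knockout cells (Hsph1, Hspd1 and Hsp90ab1), Dnajb1 rose, and 6 were not called. The test was edgeR's quasi-likelihood test of knockout against heterozygous, with p-values adjusted by Benjamini-Hochberg over all 16436 genes tested and a threshold of 0.05. All 10 members could be tested. Over all genes, 16.4% passed, 6.41% higher and 10.0% lower. The median log2 fold change was -0.40 over the members and -0.02 over all genes tested. Genotypes did not overlap in 8 members (6 below and 2 above in the knockout). Groups did not overlap in 51.5% of all genes tested, with the knockout below in 26.9% and above in 24.6%. With 10 members, these counts are described and not tested against the background.

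**Figure D2:**
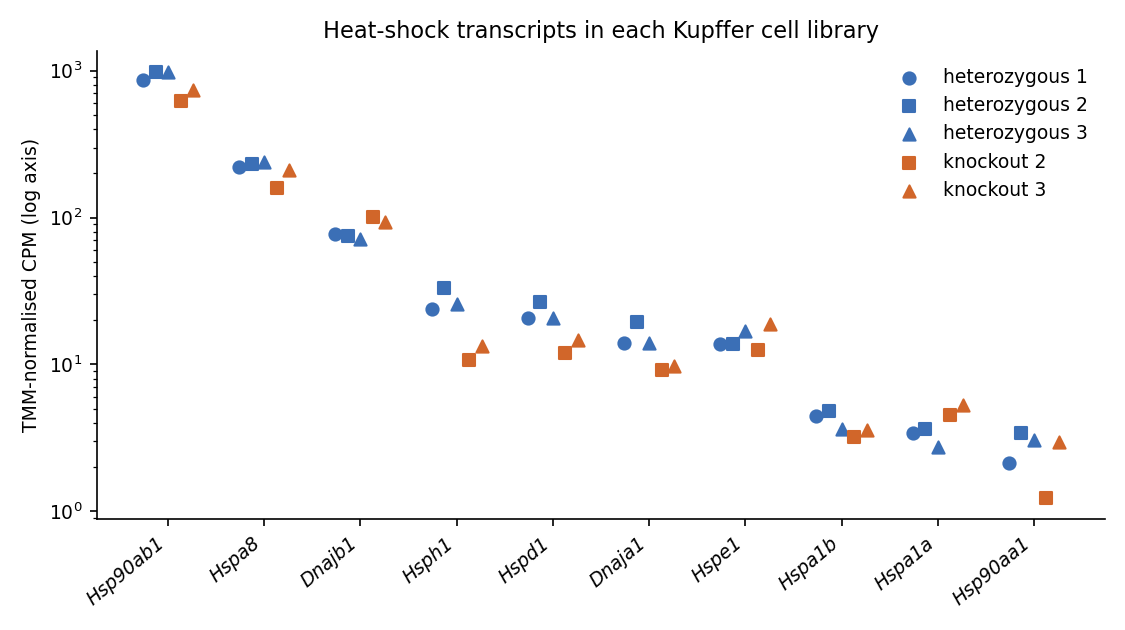
TMM-normalised CPM on a log axis for each of the 10 members, ordered by their heterozygous mean, with 1 point per library (blue heterozygous, orange knockout, shape by replicate number). Orange points lie below all blue points for Hsp90ab1, Hspa8, Hsph1, Hspd1, Dnaja1 and Hspa1b, and above them for Dnajb1 and Hspa1a.

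Levels per kilobase of the longest protein-coding transcript spanned more than the differences between genotypes. Hsp90ab1 stood first in the heterozygous cells at 373 CPM per kilobase, followed by Hspa8 (95.9), Dnajb1 (24.9), Hspe1 (19.1), Hspd1 (9.32), Hsph1 (7.23), Dnaja1 (2.82), Hspa1b (1.54), Hspa1a (1.10) and Hsp90aa1 (0.875). Libraries of neighbours in this order overlapped for Hspd1 and Hsph1 and for Hspa1a and Hsp90aa1. In the knockout cells the order was the same except that Hspa1a (1.66 CPM per kilobase) stood above Hspa1b (1.21), and there only Dnaja1 and Hspa1a overlapped as neighbours. Genes with shared sequence may be underestimated on this scale.

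Of the 4 members that are HSP70 or HSP110 proteins, Hsph1 had the largest fold change. It stood at 23.7, 33.0 and 25.7 CPM in heterozygous replicates 1, 2 and 3 and at 10.8 and 13.3 CPM in knockout replicates 2 and 3. Both knockout libraries lay below every heterozygous one. The log2 fold change was -1.19 ± 0.20 (SE, n = 3 and 2, edgeR adjusted p = 0.0173), so that the knockout mean was 0.437 times the heterozygous one. The call was lost without heterozygous replicate 2 (-1.04, edgeR adjusted p = 0.0582) or without knockout replicate 2 (-1.05, edgeR adjusted p = 0.0702). In this and every later fit without 1 knockout library, a single knockout library is left, the heterozygous libraries alone give the spread, and the lone library is assumed to vary like them. It held with offsets for transcript length and GC content (-0.87, edgeR adjusted p = 0.0384).

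Hspa8, the constitutive HSP70, was at 221, 230 and 237 CPM in heterozygous and at 160 and 210 CPM in knockout libraries. Both knockout libraries were lower, 1 of them slightly, and the gene did not pass (log2 fold change -0.31 ± 0.13, edgeR adjusted p = 0.155). With knockout replicate 2 as the single knockout library it passed (-0.51, edgeR adjusted p = 0.0384). The ratio of Hsph1 to Hspa8 counts was 10.7%, 14.3% and 10.9% in heterozygous and 6.73% and 6.32% in knockout libraries. Ratios within a library do not depend on scaling, but no length or GC offset entered them. With such offsets the log2 fold changes were -0.87 for Hsph1 and -0.29 for Hspa8.

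The stress-induced pair was low in all libraries, with 199 to 410 counts of Hspa1a and 241 to 380 of Hspa1b. Hspa1a was at 3.40, 3.64 and 2.73 CPM in heterozygous and at 4.56 and 5.30 CPM in knockout libraries, which were both higher. It did not pass (log2 fold change 0.60 ± 0.24, edgeR adjusted p = 0.144). Hspa1b was at 4.49, 4.82 and 3.64 CPM in heterozygous and at 3.196 and 3.58 CPM in knockout libraries. These were both lower, and it did not pass either (-0.35 ± 0.24, edgeR adjusted p = 0.374). Summed into 1 feature, the pair stood at 7.89, 8.45 and 6.37 CPM against 7.76 and 8.88 CPM, with overlapping groups and a difference of 0.14 ± 0.20 on the log2 scale (edgeR adjusted p = 0.703).

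The ratio within this pair varied little within a genotype, and the genotypes did not overlap. For every count of Hspa1b there were 0.756, 0.755 and 0.751 counts of Hspa1a in heterozygous replicates 1, 2 and 3, and 1.43 and 1.48 in knockout replicates 2 and 3. As a share of the pair, Hspa1a made up 43.1% (95% exact binomial interval 39.2% to 47.0%), 43.0% (39.2% to 46.9%) and 42.9% (38.3% to 47.5%) in the heterozygous libraries. It made up 58.8% (54.7% to 62.8%) and 59.7% (55.9% to 63.4%) in the knockout libraries. These intervals cover counting error only and treat each read as a separate molecule. The reads were amplified and carry no molecular barcodes, so the intervals may be too narrow. The geometric mean ratio in the knockout was 1.93 times that in the heterozygous libraries. The Hspa1a to Hspa1b ratio was chosen after its values were seen and is given without a test. Of the 50-base windows, 983 were unique to Hspa1a and 1038 to Hspa1b. An antisense gene model, Gm20481, covers 564 exon bases of Hspa1a and had 0 counts in all 5 libraries. The strand setting of the counting is not stated, and reads there may be missing from Hspa1a. Unique alignment within the pair depends on the bases at which the genes differ, and whether the mice of the 2 genotypes differ in sequence there was not analysed here.

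**Figure D3:**
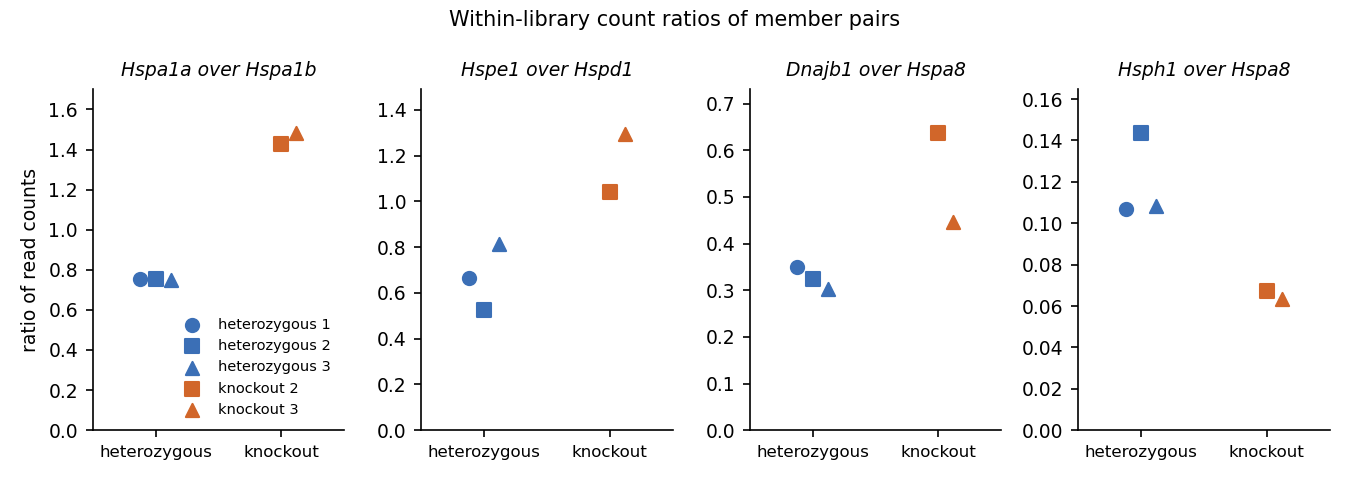
Ratios of read counts within each library for 4 pairs of members (linear axes from 0, blue heterozygous, orange knockout, shape by replicate number). The ratio of Hspa1a to Hspa1b lies between 0.751 and 0.756 in the heterozygous libraries and at 1.43 and 1.48 in the knockout libraries, and groups do not overlap in the other panels either.

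Of the J-domain proteins, Dnajb1 passed the test and Dnaja1 did not. Dnajb1, which works with HSP70 in refolding and is induced by HSF1, was at 77.4, 74.7 and 72.0 CPM in the heterozygous libraries and at 102 and 93.8 CPM in the knockout libraries. Both knockout values lay above all heterozygous ones. It rose 1.31-fold (log2 0.39 ± 0.09, edgeR adjusted p = 0.0381). Leaving out any 1 of the 5 libraries ended the call, with values from 0.33 to 0.45. Its ratio to Hspa8 was 34.99%, 32.4% and 30.4% in heterozygous and 63.6% and 44.7% in knockout libraries.

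Dnaja1, a J-domain protein that also serves protein import into mitochondria, stood at 14.0, 19.5 and 13.9 CPM in heterozygous and at 9.20 and 9.81 CPM in knockout libraries. The groups did not overlap, and the gene missed the threshold (log2 fold change -0.74 ± 0.20, edgeR adjusted p = 0.0591). With length and GC offsets the value was 0.024. Smu1, on the other strand, overlaps 608 of its exon bases.

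Both HSP90 genes were compared next. Hsp90ab1, the most abundant member, stood at 865, 979 and 976 CPM in heterozygous replicates 1, 2 and 3 and at 619 and 734 CPM in knockout replicates 2 and 3. The groups did not overlap. It fell by 0.48 ± 0.11 on the log2 scale (edgeR adjusted p = 0.0374), to 0.719 times the heterozygous level. Of the 5 fits with a library left out, 4 lost the call. The exception left knockout replicate 2, the lower one, as the single knockout library (-0.59). The 4 fits gave -0.53, -0.44 and -0.45 when heterozygous replicate 1, 2 or 3 was missing and -0.36 when knockout replicate 2 was. Hsp90aa1 was at 2.13, 3.43 and 3.05 CPM in heterozygous and at 1.23 and 2.97 CPM in knockout libraries, from 93 to 271 counts. Its groups overlapped (log2 fold change -0.45 ± 0.45, edgeR adjusted p = 0.549), and its sign turned without knockout replicate 2 (0.049). Hsp90aa1 counts came to 0.246%, 0.351% and 0.312% of those of Hsp90ab1 in the heterozygous and to 0.199% and 0.405% in the knockout libraries.

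The partners of the mitochondrial chaperonin, whose promoters overlap on chromosome 1, gave 1 call, for Hspd1. Hspd1, the chamber, was at 20.6, 26.4 and 20.7 CPM in heterozygous and at 12.0 and 14.6 CPM in knockout libraries, below all heterozygous values. It fell by 0.76 ± 0.18 on the log2 scale (edgeR adjusted p = 0.0383), to 0.589 times the heterozygous level. Each of the 5 fits without 1 library lost the call, with values of -0.90 to -0.63, and with length and GC offsets it was at -0.48 (edgeR adjusted p = 0.108). Hspe1, the lid, was at 13.8, 13.8 and 16.9 CPM in heterozygous and at 12.5 and 19.0 CPM in knockout libraries. Its groups overlapped, and it did not pass (0.08 ± 0.22, edgeR adjusted p = 0.837). The Hspe1 count was 66.7%, 52.4% and 81.4% of the Hspd1 count in heterozygous and 104% and 130% in knockout libraries. The Hspd1 transcript used here has 2423 bases and that of Hspe1 774, and with length and GC offsets the log2 fold changes were -0.48 for Hspd1 and -0.20 for Hspe1. The pseudogene row Hspd1-ps3 held 22, 37 and 29 counts in heterozygous and 12 and 15 in knockout libraries.

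Ratios were tested for 6 pairs by a two-sided exact permutation test over the 10 divisions of 5 libraries into 3 and 2, whose smallest p is 0.1. The log2 ratio of the knockout minus the heterozygous libraries was 0.82 for Hspe1 over Hspd1, 0.71 for Dnajb1 over Hspa8, -0.86 for Hsph1 over Hspa8 and 0.47 for Hspa1a with Hspa1b over Hspa8. Each of these 4 reached the smallest exact p of 0.1 (adjusted 0.15). Dnaja1 over Hspa8 (-0.39, exact p = 0.2, adjusted 0.24) and Hsp90aa1 over Hsp90ab1 (-0.08, exact p = 0.9) did not. No ratio could pass a threshold of 0.05 in this design. None was corrected for transcript length, GC content or shared sequence.

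**Figure D4:**
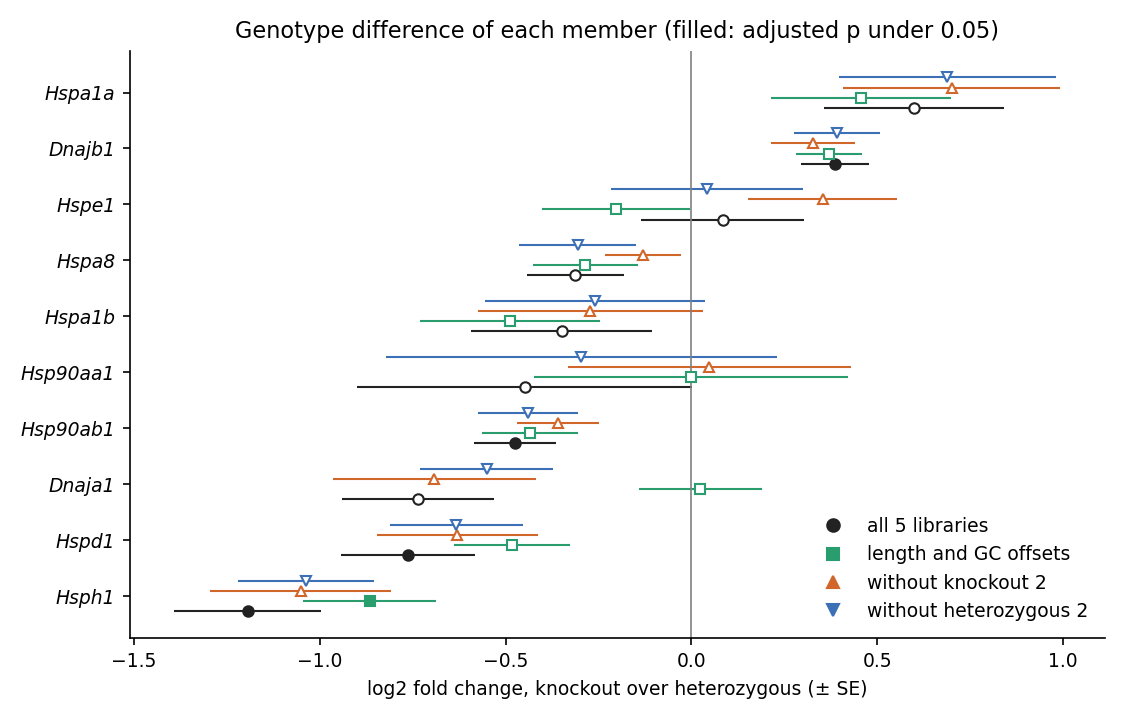
Log2 fold change of knockout over heterozygous with its SE for each member, from all 5 libraries (black), with length and GC offsets (green), without knockout replicate 2 (orange) and without heterozygous replicate 2 (blue). Filled symbols have an adjusted p under 0.05. Hsph1 lies between -1.19 and -0.87 in all 4, while Dnaja1 moves from -0.74 to 0.024 with the offsets.

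When the hepatocyte marker level entered the edgeR fit as a covariate, 0 members passed (0 at an unadjusted p under 0.05 as well), and 1 gene of the whole table did. Hsph1 was then at -0.78, Hspd1 at -0.38, Hsp90ab1 at -0.19 and Dnajb1 at 0.26, and Hspa8 turned to 0.13. The covariate follows genotype in these libraries, so the parts of genotype and marker level cannot be told apart. Of 12 immediate-early genes that rise on stimulation or tissue dissociation, 11 passed and were higher in the knockout, against 6.41% of all genes. Their sum was 837 to 888 CPM in the heterozygous and 2667 and 2245 CPM in the knockout libraries. Hspa1a and Hspa1b, which often rise with them, summed to overlapping values as given above. Singly, Hspa1a was higher and Hspa1b lower in both knockout libraries. Among the other members, Dnajb1 passed as higher, and Hsph1, Hspd1 and Hsp90ab1 passed as lower. How the members relate to the immediate-early genes was not tested.

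The wider chaperone network was described by 91 genes in 7 lists, of which 86 were tested. Of these, 16 fell, 2 rose and 68 were not called, so that 20.9% passed against 16.4% of all genes, with a median log2 fold change of -0.19. The 16 include Hspa12a, whose call is no support for the reason given below. Over all genes tested, 10.0% fell and 6.41% rose, and the lists below were not tested as sets. With length and GC offsets, 5 of the network genes were lower and 2 higher, so that 8.14% passed against 8.83% of all genes. Leaving out heterozygous replicate 1 or 2 gave 4 and 3 lower and 0 higher genes (4.65% and 3.49% against 2.90% and 2.09% of all genes). Without heterozygous replicate 3, 12 were lower and 2 higher (16.3% against 15.7% of all genes). Fits without 1 knockout library leave a single one and enter only the ranges given later.

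Of 3 heat-shock factors and the HSF1-binding protein Hsbp1, 0 passed in edgeR, and 1, Hsf2, had an unadjusted p under 0.05. The median log2 fold change of the 4 genes was -0.62. Hsf1, the main heat-shock factor, was at 48.0 ± 3.44 CPM (SD, n = 3) in the heterozygous and at 43.8 ± 2.42 CPM (SD, n = 2) in the knockout cells (edgeR adjusted p = 0.471). Hsbp1 was at 207 ± 14.1 and 214 ± 3.06 CPM. The factors Hsf2 and Hsf4, named after their values were seen, were lower in both knockout libraries without passing. Hsf2 was at 1.06, 0.862 and 1.25 CPM in heterozygous and at 0.305 and 0.543 CPM in knockout cells, a difference of -1.31 ± 0.49 on the log2 scale (edgeR adjusted p = 0.121). Hsf4 had 16, 21 and 22 counts against 4 and 14 (log2 fold change -1.11 ± 0.78, edgeR adjusted p = 0.377).

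Of 8 other HSP70 and HSP110 genes, 3 fell and 0 rose. One of the 3, Hspa12a, passed the filter on low counts only through the heterozygous libraries, so its call is no support, and without it 2 of 7 fell. Hspa4, an HSP110 protein like Hsph1, was at 41.9, 53.7 and 35.03 CPM in heterozygous and at 18.2 and 15.0 CPM in knockout libraries (log2 fold change -1.39 ± 0.21, edgeR adjusted p = 0.0148). Hspa13 changed by -0.85 ± 0.20. Hspa12a had 407 counts over the heterozygous and 3 over the knockout libraries. Divided by the summed library sizes of each group, its level was 88.9 times as high in the heterozygous (95% exact interval of counting error 30.2 to 433). This interval too treats each read as a separate molecule and may be too narrow. Hspa4l (-1.498 ± 0.46) and Hspa14 (-0.20 ± 0.12) did not pass.

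Of 15 J-domain proteins, 2 fell. Dnaja2, a relative of Dnaja1, was at 101, 95.6 and 93.5 CPM in heterozygous and at 55.9 and 64.5 CPM in knockout libraries (log2 fold change -0.68 ± 0.10, edgeR adjusted p = 0.0148). Dnajc9, a histone chaperone, changed by -0.56 ± 0.13. Dnajc5 (-0.17 ± 0.12) and Dnajc7 (-0.21 ± 0.09) did not pass.

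Of 23 co-chaperones of HSP70 and HSP90, 5 fell and 1 rose. Fkbp5, an immunophilin of the glucocorticoid receptor complex and a known target of that receptor, had the smallest p of these. It was at 406, 407 and 291 CPM in heterozygous and at 128 and 131 CPM in knockout libraries (log2 fold change -1.51 ± 0.17, edgeR adjusted p = 0.0079). St13, which joins HSP70 to HSP90, changed by -0.83 ± 0.13, the HSP90 immunophilin Ppid by -1.005 ± 0.17 and the HSP90 partner Chordc1 by -1.52 ± 0.26. Cdc37, which loads kinases onto HSP90 (0.27 ± 0.09), and the immunophilin Fkbp4 (-0.21 ± 0.09) did not pass. The remaining calls, named after their values were seen, were the HSP90 activator Ahsa2, which fell (-1.03 ± 0.23), and Stub1. Stub1, a ubiquitin ligase that binds HSP70 and HSP90, rose from 53.1, 51.8 and 62.0 CPM to 87.9 and 83.0 CPM, by 0.62 ± 0.11 on the log2 scale (edgeR adjusted p = 0.0212).

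Of 14 genes of the cytosolic chaperonin TRiC and of prefoldin, 4 fell and 0 rose. These were the TRiC subunits Cct6a (log2 fold change -0.53 ± 0.09), Tcp1 (-0.50 ± 0.12) and Cct4 (-0.48 ± 0.11) and the prefoldin subunit Vbp1 (-0.89 ± 0.17). Cct5 (-0.08 ± 0.10) and Cct7 (0.20 ± 0.12) did not pass. Of 5 small heat-shock proteins tested, Cryab fell, from 6.49 ± 0.50 to 3.26 ± 0.45 CPM. Hspb6 (0.07 ± 0.24) and Hspb11 (-0.18 ± 0.23) did not pass.

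Of 17 mitochondrial chaperones and proteases, 1 fell and 1 rose. Clpx, the unfoldase of a matrix protease, was at 37.2, 36.8 and 32.9 CPM in heterozygous and at 12.8 and 9.90 CPM in knockout libraries (log2 fold change -1.65 ± 0.16, edgeR adjusted p = 0.00616). Htra2, a protease of the intermembrane space, rose by 0.51 ± 0.11. The matrix HSP70 Hspa9 (-0.49 ± 0.14) and the matrix HSP90 Trap1 (-0.24 ± 0.14) did not pass.

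**Figure D5:**
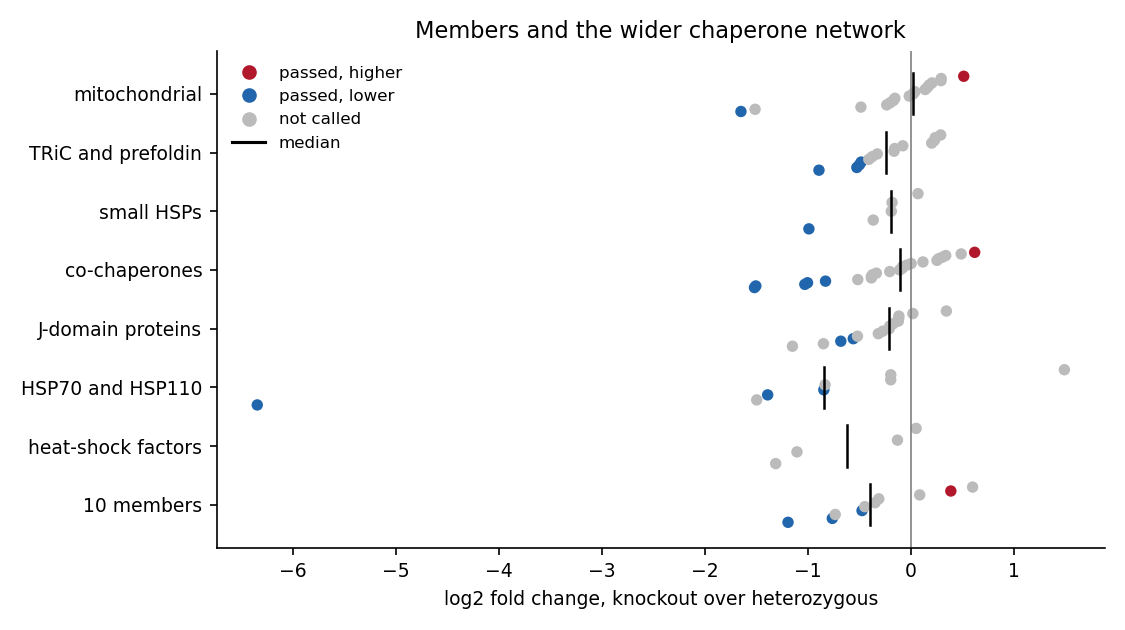
Log2 fold change of knockout over heterozygous for the 10 members and for the tested genes of 7 lists of other chaperones (red passed and higher, blue passed and lower, grey not called, black line the median). Medians lie below 0 in all rows but the mitochondrial one, and the point farthest left is Hspa12a, with 3 counts in the knockout libraries.

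The genes nearest to the summed pair Hspa1a and Hspa1b over the 5 libraries were Parp3, Zranb3 and Rac3, by the root mean square difference of centred log2 CPM. Parp3 was at 20.8, 23.0 and 17.1 CPM in heterozygous and at 20.04 and 22.7 CPM in knockout libraries. All 3 were chosen for this likeness, and no test is drawn from them. No correlation was computed over 5 libraries.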

How the data were processed

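Poly-A RNA of 5 Kupffer cell samples underwent SMART-seq V4 amplification, per the labels' protocols. The authors deposited 1 table of unnormalised read counts by gene. HTSeq 0.5.4, DESeq 1.18.0, R 3.1.2 and the mouse build mm9 are named in the submitters' processing notes. The aligner, annotation release, read length and strand are unstated in the sources used here. In the table, the 5 closing entries that name no gene (40.0% to 48.6% of all counted) were left out.

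The counts went into edgeR 4.0.16 under R 4.3.3. Low genes were removed by filterByExpr, libraries were scaled by TMM, and genotype was tested by quasi-likelihood without covariates. The common biological coefficient of variation was 0.339. The SE is the log2 fold change divided by the square root of F. The test was also run on simulated data of the knockout against heterozygous comparison, with 200 of 16436 genes changed. It found 26% of genes moved by 1 on the log2 scale and 66% of genes moved by 2, and 14.8% of its calls were false. No change smaller than 1 was simulated, and 2698 genes passed in the real data, so these rates may not carry over. Members and gene lists were chosen with earlier results of these data known. Named were all members and, per list, up to 4 passing genes by smallest p and 2 others by level, and the 3 genes nearest to the summed Hspa1a and Hspa1b. Transcript lengths, GC content and shared windows came from GENCODE M21 (lengths for 99.7% of tested genes) and promoters from RefSeq, both on a later build than mm9, so coordinates apply to those sequences only.

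Alternatives were DESeq2 1.42.0, limma-voom (limma 3.58.1), other scalings and filters, robust fitting, a replicate block, leaving out each library, length and GC offsets, and a hepatocyte marker covariate. Offsets from the lowest-numbered protein-coding transcript were added after seeing the data.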

Additional observations from a re-analysis of the deposited data

How the results depend on the processing

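Of 170 values of the 10 members under 17 alternatives, 128 kept their direction and side of the threshold, 31 lost the call, 3 gained it (Hspa8 without knockout replicate 3, which leaves 1 knockout library, Dnaja1 with DESeq2 and with a filter of 1 CPM in 2 libraries) and 8 changed sign. The changes of sign were Hspa8 (0.13) and Hsp90aa1 (0.94) with the hepatocyte covariate, Hsp90aa1 without knockout replicate 2 (0.049), Hspe1 without knockout replicate 3 (-0.24), Dnaja1 (0.024) and Hspe1 (-0.20) with length and GC offsets, and Hsp90aa1 (0.065) and Hspe1 (-0.16) with offsets from the lowest-numbered transcript. None of these 8 values passed the test. Without 1 library, Hsp90aa1 ran from -1.21 to 0.049 and Hspe1 from -0.24 to 0.35. Over all genes, 1054 were higher and 1644 lower; DESeq2 gave 2037 and 2520, length and GC offsets 683 and 764, offsets from the lowest-numbered transcript 682 and 755, the hepatocyte covariate 0 and 1, and fits without 1 library 87 to 1032 and 248 to 1508. Of the members, 0 were higher with no filter, with length and GC offsets, with the covariate and in every fit without 1 library, and 1 was lower with either kind of offset, 0 with the covariate and 0 to 3 without 1 library. Network genes gave 6 higher with DESeq2, 0 to 2 higher and 3 to 14 lower without 1 library, 5 and 6 lower with the 2 kinds of offset, and 0 and 0 with the covariate, where 1 and 8 had an unadjusted p under 0.05. In the fits with 0 higher members, at most 1 had an unadjusted p under 0.05. The difference of the log2 ratio of Hsp90aa1 to Hsp90ab1 ran from -0.59 to 0.43 without 1 library, being 0.035 without heterozygous replicate 2 and 0.43 without knockout replicate 2. The cause of these changes was not tested, beyond the smaller number of libraries. Hsp90aa1, Hspa1a and Hspa1b rest on the fewest counts.

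The labels give replicates 2 and 3 in both genotypes but do not say that a number marks a shared animal or day. Deviations of same-numbered libraries from their genotype mean correlated at -0.026 and -0.062 across genes. With 2 knockout libraries, their deviations mirror each other, so this check cannot show whether same-numbered libraries share an animal or day. With a replicate block, edgeR called 0 genes higher and 1 lower over all genes, 0 and 0 of the members (1 and 4 at an unadjusted p under 0.05) and 0 and 0 of the network genes (2 and 20), with 1 residual degree of freedom. Hsph1 was at -1.29 (edgeR adjusted p = 0.127) and the summed Hspa1a and Hspa1b at 0.18 (edgeR adjusted p = 0.775) under the block.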
